A study of Homo sapiens with 12 samples.

Results

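Genes of autophagy, of the lysosome and of the vacuolar proton pump were followed in U937 cells, a human myeloid cell line, on 12 Illumina bead arrays. The set holds every array probe whose platform gene symbol starts with ATP6V, the stem of the proton pump subunits, or is one of a list of named autophagy and lysosome genes. It came to 94 of 24526 probes and 67 of the 16922 genes named on the array. After the filter on detection, 74 of these probes and 61 of these genes were measured, of 9956 genes in all. The measured genes comprised 8 of initiation and nucleation, 8 of conjugation, 4 of the ATG8 family, 3 cargo receptors, 3 transcription factors, 4 lysosomal membrane proteins, 8 lysosomal proteases, 7 glycosidases and lipid enzymes, and 16 pump subunits.

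6 genes of the set did not pass the filter, which asked for a detection p-value under 0.05 on at least 4 of the 12 arrays. MAP1LC3A, ATP6V1C2 and ATP6V1G3, together with CTSL, the gene of cathepsin L, were detected on 0 arrays with any of their probes. ATP6V0A1 was detected on 3 arrays and ATP6V1B1 on 2. ATP6V0A4 and ATP6V1E2 had no named probe and were not analysed here.

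There were 4 control arrays of U937 cells, 4 of U937 cells given EX527 and 4 of U937 cells given MC2494, all for 24 h. EX527 is known as an inhibitor of the deacetylase SIRT1, and MC2494 is a compound named by its code, which the title of the series calls a SirTi. The labels give neither a dose nor the vehicle of the controls, and they do not say that replicates came from separate cultures, so p-values measure the spread between these arrays, which may be technical. All 12 samples are of 1 cell line.

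Each value below is a log2 signal, the probe's intensity after background correction and quantile normalization, on which a difference of 1 is a 2-fold difference. Each array value is given in the order of replicates 1 to 4. A log2 change is a difference of group means, written with its standard error from a limma model over the 12 arrays (n = 4 arrays per group), and an adjusted p is limma's, adjusted over 13174 probes. A gene rose or fell where this adjusted p was under 0.05. In bulk RNA, fewer cells of a type and less RNA per cell cannot be told apart. Quantile normalization makes each value relative to the other genes on the array, and mean raw intensity differed between groups, at 779 ± 14.5 (SD, n = 4) in control, 736 ± 32.3 in EX527 and 663 ± 31.0 in MC2494. Its part in the results was not tested. Values with median scaling and with no scaling of the arrays are given where these 2 alternatives end a call or turn a called direction. Changes that did not pass can turn without being named.

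Of 14 monocytic marker genes 12 were measured, against 3 of 10 lymphocyte, 1 of 10 erythroid and megakaryocyte and 1 of 10 epithelial and fibroblast markers. The array named probes for 13, 9, 7 and 10 genes of these lists, in this order. CD33 and MPO were the monocytic markers without a measured probe. With MC2494 6 of the 12 monocytic markers rose and 3 fell, and with EX527 2 rose and 7 fell. That is 75% of the markers with either compound, where 72.1% of all genes changed with MC2494 and 56% with EX527. Whether the marker changes have a part in the lysosomal results was not tested.

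Autophagy carries cytoplasmic cargo to the lysosome. The ULK1 kinase and a lipid kinase complex start a membrane, a pair of ubiquitin-like conjugation systems attach ATG8 proteins such as LC3 to it, and receptors such as SQSTM1 bind cargo to the ATG8 proteins. The lysosome then degrades the content with hydrolases that need an acid pH, which the vacuolar proton pump sets up with a cytosolic V1 sector that splits ATP and a membrane V0 sector that passes protons. TFEB, TFE3 and MITF are transcription factors that bind E-boxes and E-box variants in promoters of many lysosomal genes.

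With MC2494, 33 of the 61 measured genes rose, 10 fell and 18 did not pass. Over all 9956 genes 37.3% rose and 34.8% fell, 72.1% in either direction. The median log2 change was 0.27 in the set and 0.01 over all genes. At least 1.5-fold changes numbered 23, of which 20 were rises, and over all genes 32.7% passed this size together with the test. The 4 MC2494 values lay apart from the 4 control values in 43 genes of the set and in 65.7% of all genes.

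With EX527, 22 of the 61 rose, 12 fell and 27 did not pass, while over all genes 25.6% rose and 30.4% fell, 56% in either direction. The median was 0.02 in the set and -0.04 over all genes. The rises of OPTN, WIPI1, ATG12 and LAMP2 reached 1.5-fold, and 0 falls did. Over all 9956 genes 843 called rises and 362 called falls reached it, 12.1% in either direction. The groups lay apart in 30 genes of the set and in 51.6% of all genes. Both comparisons share the 4 control arrays.

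The share of changed genes was thus near that of all genes in both comparisons. Of the changed genes, 76.7% were rises in the set and 51.7% over all genes with MC2494, and 64.7% against 45.6% with EX527. The split depended on the scaling of the arrays. With median scaling 27 rose and 16 fell with MC2494 (62.8% rises, against 43% over all genes), and 17 rose and 15 fell with EX527 (53.1% against 42.1%). With no scaling the counts were 26 and 16 for MC2494 (61.9% against 42.4%) and 18 and 11 for EX527 (62.1% against 48.8%). The difference in split between the set and all genes was not tested.

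**Figure D1:**
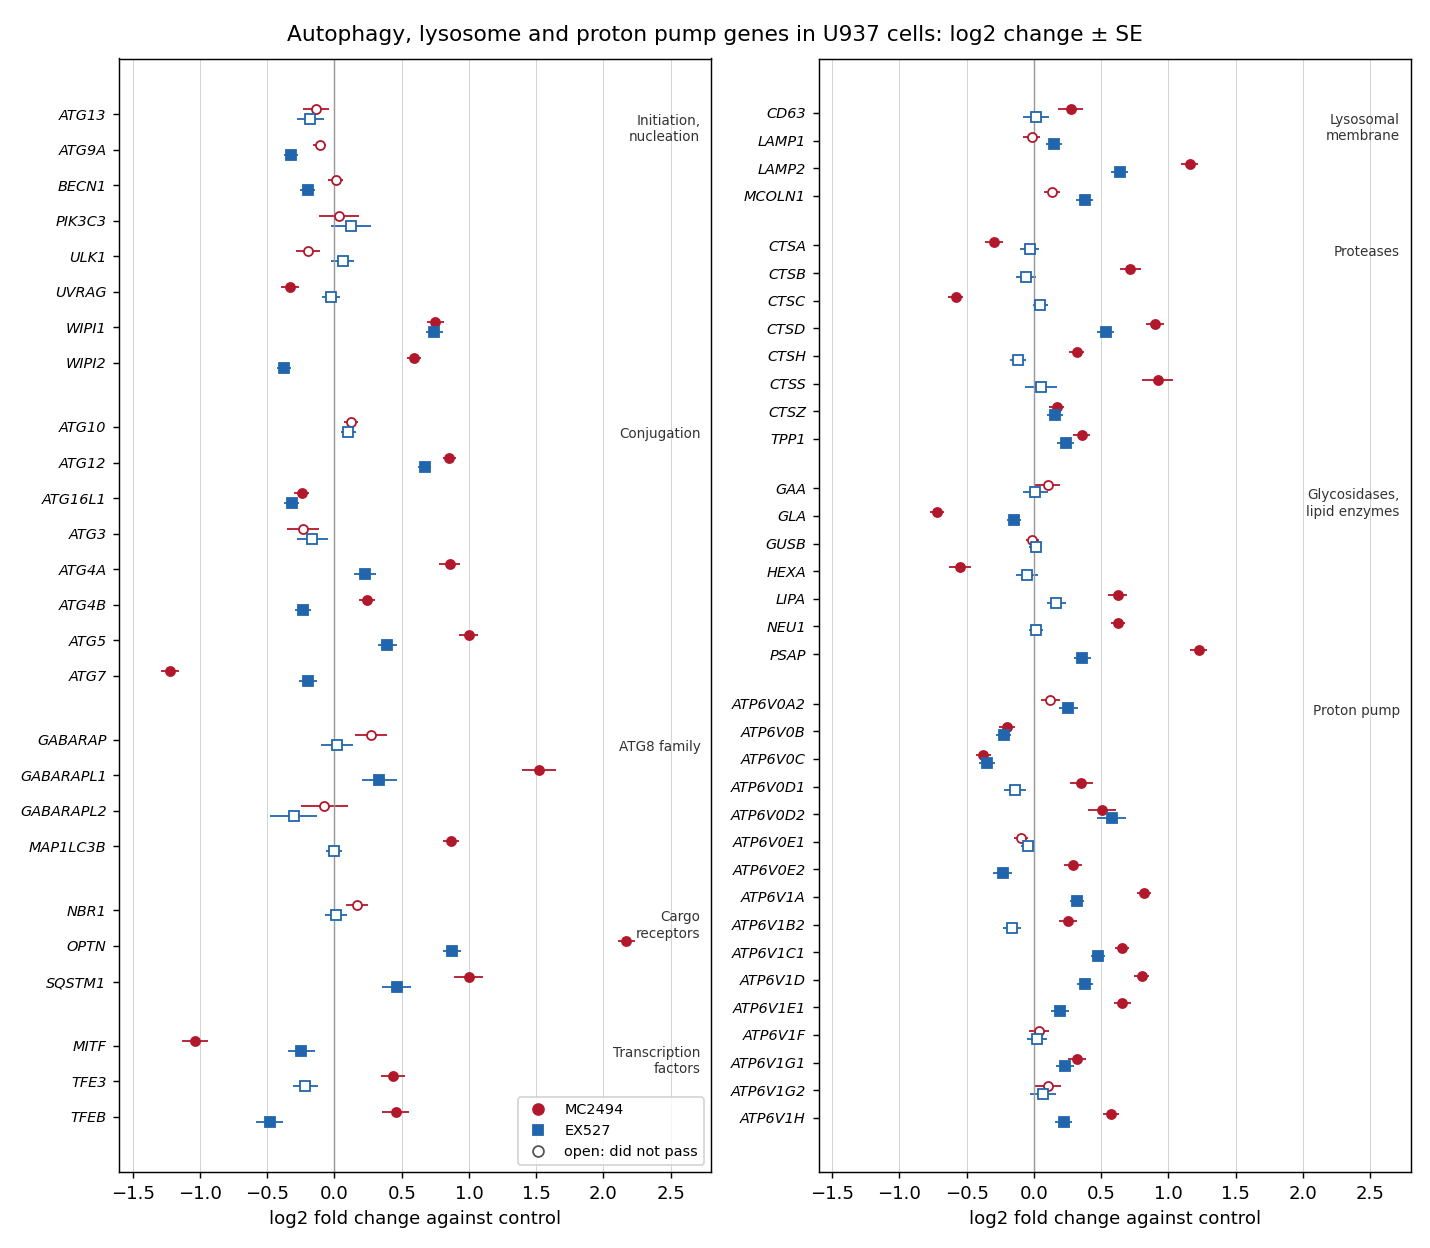
Log2 change against control, with standard error, of each of the 61 measured genes, grouped by role, for MC2494 (circles) and EX527 (squares). Filled symbols passed an adjusted p of 0.05 and open ones did not. OPTN and GABARAPL1 lie farthest to the right with MC2494 and ATG7 and MITF farthest to the left, on quantile normalized values. Among changes called under any scaling, CTSH, CTSZ, ATP6V1B2, ATP6V1F and ATP6V1G1 turn sign with MC2494 under both other scalings. LAMP1 turns with EX527 under median scaling.

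Among the 8 initiation and nucleation genes, WIPI1 and WIPI2 rose and UVRAG fell with MC2494. WIPI1 rose and WIPI2, ATG9A and BECN1 fell with EX527. WIPI1 and WIPI2 bind the phosphatidylinositol 3-phosphate of the forming membrane. WIPI1 lay at 7.53, 7.41, 7.44 and 7.58 on the control arrays, 8.17, 8.17, 8.22 and 8.36 on the EX527 arrays and 8.18, 8.33, 8.19 and 8.26 on the MC2494 arrays. Both treated groups were above every control array and overlapped each other. The log2 change was 0.75 ± 0.06 with MC2494 (adjusted p = 8.22e-08) and 0.74 ± 0.06 with EX527 (adjusted p = 4.13e-07). WIPI2, which recruits ATG16L1, lay at 9.01, 8.93, 8.93 and 8.96 on the control arrays, 8.60, 8.59, 8.56 and 8.56 on the EX527 arrays and 9.53, 9.65, 9.55 and 9.45 on the MC2494 arrays. Its 3 groups did not overlap, with MC2494 highest and EX527 lowest. It rose by 0.59 ± 0.05 with MC2494 (adjusted p = 1.63e-07) and changed by -0.38 ± 0.05 with EX527 (adjusted p = 3.73e-05).

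ULK1, the kinase that starts autophagy, lay at 11.43, 11.46, 11.58 and 11.69 on the control arrays, 11.62, 11.62, 11.56 and 11.59 on the EX527 arrays and 11.52, 11.07, 11.38 and 11.41 on the MC2494 arrays. Its change with MC2494, -0.20 ± 0.09, did not pass (adjusted p = 0.0581), but passed when any 1 of control replicate 1 and MC2494 replicate 1 (-0.25 to -0.23, adjusted p from 0.0209 to 0.0413) was left out, with median scaling (-0.50, adjusted p = 8.35e-05) and with no scaling (-0.50, adjusted p = 2.69e-05). A further ULK1 probe gave -0.19 ± 0.07 (adjusted p = 0.0199). UVRAG, a partner of BECN1 in the lipid kinase complex, had 7.83, 7.87, 7.86 and 7.90 in control and 7.48, 7.53, 7.61 and 7.51 in MC2494. These groups did not overlap, and the change was -0.33 ± 0.06 (adjusted p = 0.00037). The EX527 arrays stood at 7.92, 7.88, 7.64 and 7.91, a change of -0.03 ± 0.06 that did not pass (adjusted p = 0.753).

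ATG9A, a membrane protein that scrambles lipids, lay at 8.84, 8.96, 8.92 and 8.99 on the control arrays, 8.60, 8.57, 8.61 and 8.64 on the EX527 arrays and 8.77, 8.79, 8.88 and 8.83 on the MC2494 arrays. The EX527 arrays were below all others. It fell by 0.32 ± 0.05 with EX527 (adjusted p = 0.000109). The change with MC2494, -0.11 ± 0.05, did not pass (adjusted p = 0.0674). It passed without control replicate 1 (-0.14, adjusted p = 0.0294), with median scaling (-0.19, adjusted p = 0.0165) and with no scaling (-0.19, adjusted p = 0.0374). BECN1, the beclin subunit of the lipid kinase complex, changed by -0.20 ± 0.06 with EX527 (adjusted p = 0.00792, and 0.0777 with no scaling) and by 0.01 ± 0.06 with MC2494 (adjusted p = 0.906). PIK3C3, the lipid kinase itself, and ATG13, a partner of ULK1, did not pass in either comparison, with changes from -0.18 to 0.12. The ATG13 change with EX527 passed without EX527 replicate 3 (-0.25, adjusted p = 0.0494).

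Conjugation genes held both a large rise and the largest fall of the set. With MC2494, ATG12, ATG5, ATG4A and ATG4B rose and ATG7 and ATG16L1 fell. With EX527, ATG12, ATG5 and ATG4A rose and ATG7, ATG16L1 and ATG4B fell. ATG7 encodes the enzyme that activates both ubiquitin-like proteins. Its signal was 10.75, 10.76, 10.76 and 10.91 on the control arrays, 10.67, 10.70, 10.53 and 10.49 on the EX527 arrays and 9.64, 9.43, 9.66 and 9.56 on the MC2494 arrays. All MC2494 arrays were more than 1 unit below all control arrays, and the EX527 arrays lay just below control without overlap. The change was -1.22 ± 0.07 with MC2494, a 2.33-fold fall (adjusted p = 1.39e-09). With EX527 it was -0.20 ± 0.07 (adjusted p = 0.0258), a call lost without any 1 of control replicate 4 and EX527 replicates 3 and 4 (-0.18 to -0.16, adjusted p from 0.0693 to 0.08).

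ATG5, which is joined to ATG12, lay at 7.39, 7.17, 7.37 and 7.32 on the control arrays, 7.74, 7.77, 7.62 and 7.70 on the EX527 arrays and 8.39, 8.25, 8.18 and 8.43 on the MC2494 arrays. The 3 groups were apart, in the order control, EX527, MC2494. The change was 1.00 ± 0.07 with MC2494, a 2-fold rise (adjusted p = 1.5e-08), and 0.39 ± 0.07 with EX527 (adjusted p = 0.000345). ATG12, the ubiquitin-like protein of the pair, lay at 9.37, 9.42, 9.41 and 9.50 on the control arrays, 10.12, 10.10, 10.09 and 10.07 on the EX527 arrays and 10.26, 10.34, 10.27 and 10.24 on the MC2494 arrays. Again the 3 groups did not overlap. It rose by 0.85 ± 0.05 with MC2494 (adjusted p = 1.65e-09) and by 0.67 ± 0.05 with EX527 (adjusted p = 1.09e-07).

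ATG16L1, which places the ATG12 and ATG5 conjugate on the membrane, moved the other way. It had 9.18, 9.23, 9.28 and 9.18 on the control arrays, 8.93, 8.91, 8.86 and 8.90 on the EX527 arrays and 8.88, 8.93, 9.08 and 9.00 on the MC2494 arrays. Both treated groups lay below control and overlapped each other, with changes of -0.24 ± 0.05 (adjusted p = 0.00101) for MC2494 and -0.32 ± 0.05 (adjusted p = 0.000218) for EX527. A further probe gave -0.19 ± 0.06 and -0.23 ± 0.06. ATG10 and ATG3, the enzymes that pass ATG12 and the ATG8 proteins on, did not pass. Their changes with MC2494 were 0.12 (adjusted p = 0.0578) and -0.24 (adjusted p = 0.0892). ATG3 passed without any 1 of control replicate 3 and MC2494 replicate 1 (-0.32, adjusted p from 0.0267 to 0.0295). ATG10 passed without any 1 of control replicates 1 and 3 (0.15, adjusted p from 0.0371 to 0.044), with median scaling (0.18) and with no scaling (0.18), and with EX527 its change of 0.10 also passed under these scalings (0.16 and 0.20).

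ATG4A and ATG4B are proteases that trim ATG8 proteins. ATG4A had 6.93, 6.77, 6.87 and 7.06 on the control arrays, 7.14, 7.09, 7.00 and 7.32 on the EX527 arrays and 7.63, 7.75, 7.83 and 7.85 on the MC2494 arrays. MC2494 stood above the other groups, which overlapped. Its change was 0.86 ± 0.08 with MC2494 (adjusted p = 3.02e-07). With EX527 it was 0.23 ± 0.08 (adjusted p = 0.0279), and the call was lost without any 1 of control replicates 2 and 3 and EX527 replicates 1 and 4 (0.17 to 0.23, adjusted p from 0.0522 to 0.0934). ATG4B had 8.58, 8.55, 8.54 and 8.41 on the control arrays, 8.18, 8.39, 8.28 and 8.30 on the EX527 arrays and 8.82, 8.80, 8.71 and 8.72 on the MC2494 arrays. Its 3 groups did not overlap, and the order was EX527, control, MC2494. The changes were 0.24 ± 0.06 with MC2494 (adjusted p = 0.00238) and -0.24 ± 0.06 with EX527 (adjusted p = 0.00415). Both calls were lost with no scaling, at 0.17 (adjusted p = 0.0768) and -0.17 (adjusted p = 0.0965).

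In the ATG8 family, GABARAPL1 and MAP1LC3B rose with MC2494, and GABARAP and GABARAPL2 did not pass. The ATG8 proteins are the small ubiquitin-like proteins that mark the autophagosome, and MAP1LC3B encodes LC3B, the form most used to follow it. MAP1LC3B had 9.19, 9.00, 9.12 and 9.02 on the control arrays, 9.01, 9.21, 9.06 and 9.04 on the EX527 arrays and 9.95, 9.96, 9.93 and 9.96 on the MC2494 arrays. The MC2494 arrays lay within 0.03 of each other and far above both other groups, which overlapped. The change was 0.87 ± 0.06 with MC2494, a 1.82-fold rise (adjusted p = 1.03e-08), and -0.01 ± 0.06 with EX527 (adjusted p = 0.949).

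GABARAPL1, an ATG8 protein close to GABARAP, had 5.47, 5.25, 5.88 and 5.73 on the control arrays, 5.81, 5.83, 5.88 and 6.15 on the EX527 arrays and 7.19, 6.88, 7.29 and 7.06 on the MC2494 arrays. MC2494 was apart from the other groups, and EX527 overlapped control. The change was 1.52 ± 0.13 with MC2494, a 2.87-fold rise (adjusted p = 9.93e-08). With EX527 it was 0.33 ± 0.13 (adjusted p = 0.0419), a call lost without any 1 of control replicates 1 and 2 and EX527 replicates 2, 3 and 4 (0.22 to 0.36, adjusted p from 0.0504 to 0.137) and with only these 2 groups in the fit (adjusted p = 0.053). With no background correction the changes of this dim probe were 0.93 and 0.17, both still passing. GABARAP had 6.96, 7.14, 6.89 and 6.76 on the control arrays, 7.15, 7.09, 6.64 and 6.95 on the EX527 arrays and 7.42, 7.32, 7.11 and 7.01 on the MC2494 arrays, with all 3 groups overlapping. Its change of 0.27 ± 0.12 with MC2494 missed the threshold (adjusted p = 0.055), and passed without any 1 of control replicate 2 and MC2494 replicate 4 (0.34, adjusted p from 0.026 to 0.0273), with replicate number as a block (adjusted p = 0.0103), with no background correction (0.20, adjusted p = 0.0303), with median scaling (0.29, adjusted p = 0.0272) and with no scaling (0.28, adjusted p = 0.0397). GABARAPL2 had 6.65, 6.54, 6.46 and 6.42 on the control arrays, 6.18, 6.45, 6.13 and 6.11 on the EX527 arrays and 6.55, 7.04, 6.22 and 5.95 on the MC2494 arrays, and its MC2494 arrays spanned more than those of any other ATG8 gene. It changed by -0.08 ± 0.17 (adjusted p = 0.708) with MC2494 and by -0.30 ± 0.17 (adjusted p = 0.16) with EX527.

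Of the cargo receptors, OPTN and SQSTM1 rose in both comparisons. OPTN encodes optineurin, a receptor for ubiquitin-marked mitochondria and bacteria. It had 7.04, 6.84, 6.82 and 6.96 on the control arrays, 7.78, 7.75, 7.93 and 7.69 on the EX527 arrays and 9.13, 9.06, 9.06 and 9.10 on the MC2494 arrays. The 3 groups were far apart, in the order control, EX527, MC2494. OPTN showed the largest change of the set with either compound, at 2.17 ± 0.07 for MC2494, a 4.5-fold rise (adjusted p = 3.49e-12), and 0.87 ± 0.07 for EX527, a 1.83-fold rise (adjusted p = 1.43e-07).

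SQSTM1 encodes p62, the receptor for ubiquitin-marked proteins, which is itself degraded by autophagy. Its signal was 11.33, 11.74, 11.51 and 11.59 on the control arrays, 11.88, 11.82, 12.13 and 12.20 on the EX527 arrays and 12.71, 12.56, 12.55 and 12.34 on the MC2494 arrays. The groups again did not overlap, and control replicate 2 and EX527 replicate 2 came closest. SQSTM1 rose by 1.00 ± 0.11 with MC2494, which is 2-fold (adjusted p = 1.19e-06), and by 0.46 ± 0.11 with EX527, which is 1.38-fold (adjusted p = 0.00227, with a change of 0.31 under median scaling). NBR1, a further receptor for ubiquitin-marked cargo, was detected on 2 control, 0 EX527 and 4 MC2494 arrays. It had 5.17, 4.89, 5.19 and 4.90 on the control arrays, 4.94, 5.13, 5.09 and 5.03 on the EX527 arrays and 5.20, 5.12, 5.34 and 5.16 on the MC2494 arrays, and its change with MC2494, 0.17 ± 0.08, did not pass (adjusted p = 0.0826) but did without any 1 of control replicates 1 and 3 (0.21 to 0.22, adjusted p from 0.0321 to 0.0415).

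**Figure D2:**
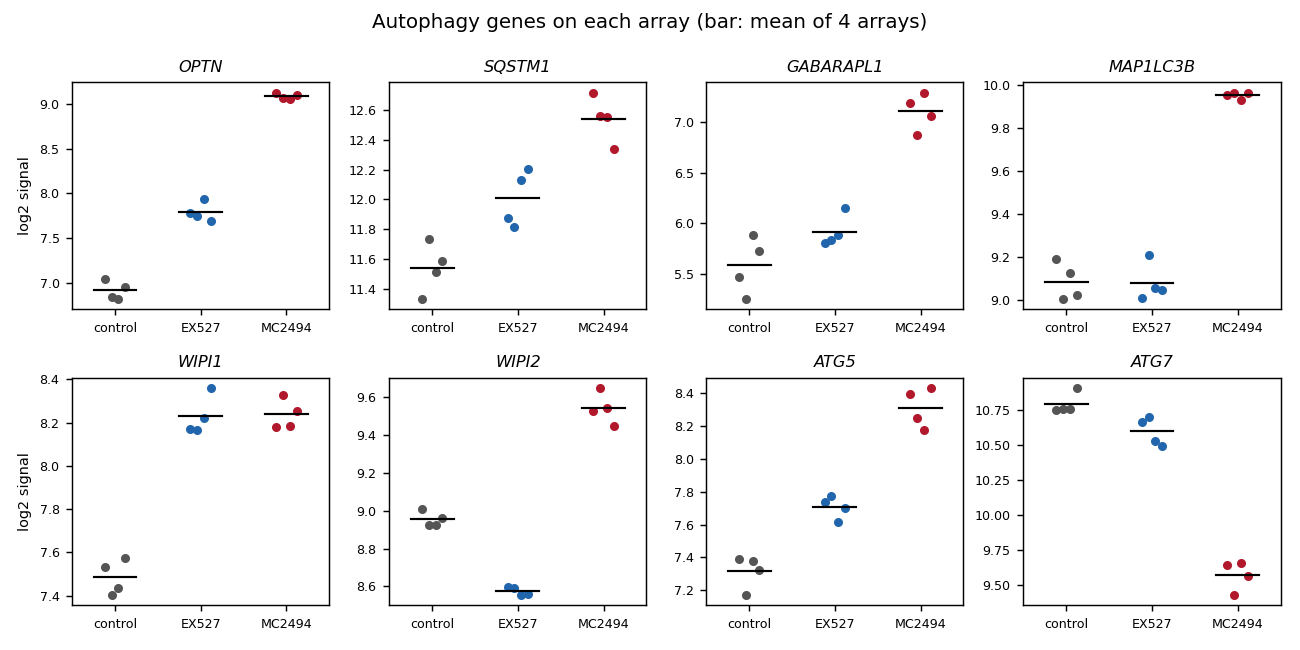
Log2 signal of 8 autophagy genes on each of the 12 arrays, with a bar at the mean of each group of 4. Each panel has its own axis, which does not start at 0. OPTN, SQSTM1 and ATG5 step up from control over EX527 to MC2494, MAP1LC3B is higher in MC2494 alone, WIPI1 is above control in both treated groups, WIPI2 is higher in MC2494 and lower in EX527, and ATG7 is lowest in MC2494.

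The 3 transcription factors split. TFEB and TFE3 rose with MC2494, and the brighter MITF probe fell. TFEB had 6.21, 6.24, 6.21 and 6.45 on the control arrays, 5.62, 5.60, 6.07 and 5.89 on the EX527 arrays and 6.61, 6.69, 6.83 and 6.80 on the MC2494 arrays. The 3 groups did not overlap, with EX527 lowest and MC2494 highest. It changed by 0.46 ± 0.10 with MC2494 (adjusted p = 0.000905) and by -0.48 ± 0.10 with EX527 (adjusted p = 0.000986). With no background correction its changes were 0.29 and -0.27, which passed. TFE3 had 6.61, 6.14, 6.33 and 6.29 on the control arrays, 6.02, 6.18, 6.02 and 6.28 on the EX527 arrays and 6.69, 6.84, 6.78 and 6.80 on the MC2494 arrays. MC2494 was above both other groups, which overlapped. The change was 0.44 ± 0.09 with MC2494 (adjusted p = 0.000617) and -0.22 ± 0.09 with EX527 (adjusted p = 0.0586), which passed without any 1 of control replicate 2 and EX527 replicate 4 (-0.28 to -0.27, adjusted p from 0.0174 to 0.0301). The rise with MC2494 was 0.28 with no background correction.

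MITF was read by a pair of probes that went in opposite directions. The brighter one had 7.44, 6.99, 7.05 and 7.13 on the control arrays, 6.81, 7.10, 6.90 and 6.81 on the EX527 arrays and 5.93, 6.13, 6.18 and 6.21 on the MC2494 arrays, with MC2494 apart from and below the other groups. It changed by -1.04 ± 0.10 with MC2494 (adjusted p = 3.75e-07) and by -0.25 ± 0.10 with EX527 (adjusted p = 0.0494), the latter call being lost without any 1 of control replicates 1 and 4 and EX527 replicates 1, 3 and 4 (-0.25 to -0.15, adjusted p from 0.0735 to 0.16), with median scaling (-0.18) and with no scaling (-0.14). With no background correction its change with MC2494 was -0.68. The dimmer probe had 5.19, 4.84, 5.11 and 4.88 on the control arrays, 5.20, 5.66, 5.60 and 5.15 on the EX527 arrays and 5.80, 5.57, 6.06 and 5.92 on the MC2494 arrays, and was detected on 1, 3 and 4 arrays of these groups. It rose by 0.83 ± 0.13 with MC2494 (adjusted p = 6.12e-05) and by 0.40 ± 0.13 with EX527 (adjusted p = 0.0215). The mean of both probes changed by -0.10 with MC2494 (adjusted p = 0.394), so the array gives no single direction for the gene.

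**Figure D3:**
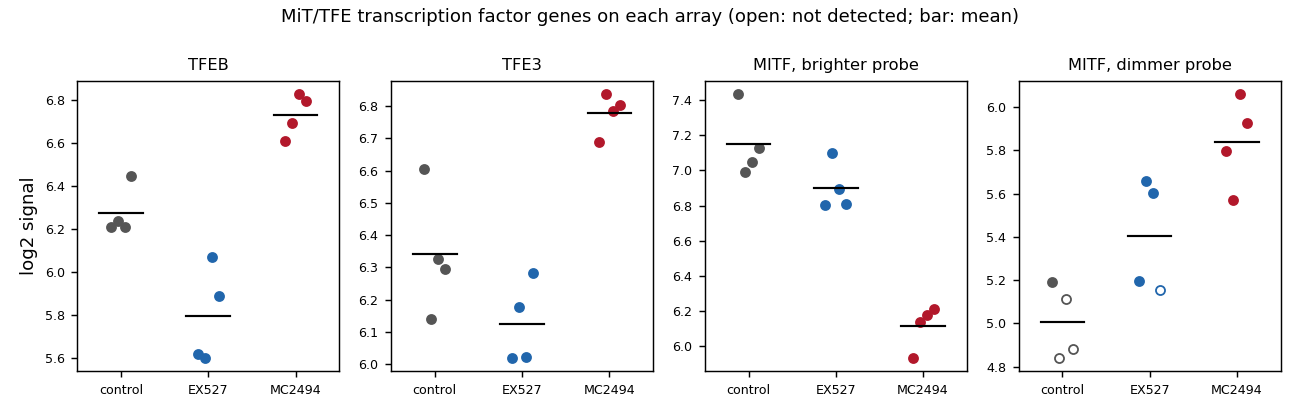
Log2 signal of TFEB, TFE3 and both measured MITF probes on each of the 12 arrays, with a bar at the group mean and open circles for arrays on which the probe was not detected. Axes differ between panels and do not start at 0. TFEB and TFE3 are highest in MC2494, and the MITF probes run in opposite directions.

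Promoter sequences of the lysosomal genes are shown because their E-boxes are the known binding motif of these factors. RefSeq promoters (GRCh38.p14, 250 bases before to 50 after the start of the gene) matched 49 of the 61 measured genes by symbol. Without a match were UVRAG, LAMP2, CTSB, CTSS, HEXA, PSAP, ATP6V0D2, ATP6V0E1, ATP6V1A, ATP6V1B2, ATP6V1C1 and ATP6V1H. The E-box CACGTG, which reads the same on both strands, occurred in 7 of 14 promoters of lysosomal enzymes and membrane proteins (50%), in 4 of 10 pump promoters (40%) and in 1 of 22 promoters of autophagy machinery (4.55%), and in 8.34% of 22199 promoters of protein-coding genes. The longer TCACGTGA, which contains it, occurred in 4, 2 and 1 of these promoters and in 1.27% of all. Those with TCACGTGA were LAMP1, MCOLN1, CTSA and GAA of the lysosome, ATP6V0D1 and ATP6V1G1 of the pump, and ATG3. The LAMP1 promoter, at chr13:113296989-113297288 on the plus strand, held 6 copies of CACGTG, marked in capitals, of which 2 lie in TCACGTGA.

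LAMP1: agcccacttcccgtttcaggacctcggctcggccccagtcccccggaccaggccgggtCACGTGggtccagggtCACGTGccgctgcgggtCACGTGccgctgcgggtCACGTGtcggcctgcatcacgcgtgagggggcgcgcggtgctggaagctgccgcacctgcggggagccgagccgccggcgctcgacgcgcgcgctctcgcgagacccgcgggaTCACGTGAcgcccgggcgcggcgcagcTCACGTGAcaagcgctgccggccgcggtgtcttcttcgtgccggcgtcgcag

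The stretches around TCACGTGA in 5 other promoters follow, 5′ to 3′ on the strand of the gene, with these 8 bases in capitals and 20 bases on either side. MCOLN1 and GAA each have 2 copies, and the copy nearer to the start is shown. They lie at chr19:7522589-7522636 (MCOLN1, plus strand), chr20:45891289-45891336 (CTSA, plus), chr17:80101529-80101576 (GAA, plus), chr16:67481190-67481237 (ATP6V0D1, minus) and chr9:114587690-114587737 (ATP6V1G1, plus) of GRCh38.p14.
MCOLN1: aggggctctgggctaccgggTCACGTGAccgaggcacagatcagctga
CTSA: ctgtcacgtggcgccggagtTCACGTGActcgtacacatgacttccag
GAA: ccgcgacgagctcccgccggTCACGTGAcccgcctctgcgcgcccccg
ATP6V0D1: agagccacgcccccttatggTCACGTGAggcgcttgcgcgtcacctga
ATP6V1G1: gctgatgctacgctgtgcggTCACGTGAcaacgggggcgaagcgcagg

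Among the 24 lysosomal and pump genes with a promoter sequence, the 11 with CACGTG held 6 rises and 2 falls with MC2494 (median 0.27), and the 13 without it held 6 rises and 3 falls (median 0.12). With EX527 these were 4 rises and 2 falls (median 0.02) against 5 rises and 2 falls (median 0.07). Over all genes 37.3% rose and 34.8% fell with MC2494, and 25.6% and 30.4% with EX527. With MC2494 both other scalings ended the rises of CD63, ATP6V0D1, ATP6V0E2 and ATP6V1G1 with CACGTG, and of CTSH, CTSZ and TPP1 without it. They also made called falls of LAMP1 with it and of GUSB and ATP6V1F without it. The difference between genes with and without CACGTG was not tested. Another pair of motifs was searched on both strands. The stress element TGATGNAAN was found in 0 of the 49 promoters, against 2.69% of all, and the antioxidant element TGACNNNGC in 7 of 14 lysosomal, 3 of 10 pump and 1 of 22 autophagy promoters, against 13.8% of all. A match only says that these letters occur in the window.

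Lysosomal membrane genes were led by LAMP2, and LAMP1, whose promoter holds the most E-boxes of those shown, did not pass with MC2494. LAMP1 and LAMP2 are the main glycoproteins of the lysosomal membrane, and a splice form of LAMP2 serves as the receptor of chaperone-mediated autophagy. The LAMP2 probes were not assigned to splice forms. LAMP2 had 11.69, 11.51, 11.44 and 11.61 on the control arrays, 12.16, 12.18, 12.31 and 12.16 on the EX527 arrays and 12.76, 12.66, 12.67 and 12.81 on the MC2494 arrays. Its groups did not overlap, in the order control, EX527, MC2494. On this brightest probe it rose 2.23-fold with MC2494 (1.16 ± 0.07, adjusted p = 1.37e-09) and 1.56-fold with EX527 (0.64 ± 0.07, adjusted p = 2.33e-06). The other 2 LAMP2 probes gave 0.42 ± 0.06 and 0.33 ± 0.06 with MC2494, and 0.10 ± 0.06 and 0.14 ± 0.06 with EX527, of which the EX527 values did not pass (adjusted p = 0.183 and 0.0751).

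LAMP1 lay at 13.21, 13.24, 13.21 and 13.24 on the control arrays, 13.42, 13.26, 13.34 and 13.50 on the EX527 arrays and 13.20, 13.13, 13.30 and 13.20 on the MC2494 arrays, where control and MC2494 overlapped. It changed by -0.02 ± 0.06 with MC2494 (adjusted p = 0.809), and by -0.33 with median scaling and -0.34 with no scaling, where it passed as a fall (adjusted p = 0.000553 and 0.00102). With EX527 it changed by 0.15 ± 0.06 (adjusted p = 0.0451), and that call was lost without any 1 of control replicates 1, 2, 3 and 4 and EX527 replicates 1, 3 and 4 (0.11 to 0.16, adjusted p from 0.0553 to 0.147) and turned to -0.03 with median scaling (0.01 with no scaling). MCOLN1, a calcium channel of the lysosome, had 8.33, 8.22, 8.38 and 8.29 on the control arrays, 8.76, 8.55, 8.76 and 8.66 on the EX527 arrays and 8.49, 8.43, 8.35 and 8.48 on the MC2494 arrays. EX527 stood above both other groups, with a rise of 0.38 ± 0.06 (adjusted p = 0.000147). With MC2494 it changed by 0.13 ± 0.06 (adjusted p = 0.0662), which passed without any 1 of control replicate 3 and MC2494 replicate 3 (0.16, adjusted p from 0.0429 to 0.0493). CD63, a tetraspanin of lysosomes and exosomes, had 8.68, 8.87, 8.90 and 8.84 on the control arrays, 9.06, 8.83, 8.69 and 8.78 on the EX527 arrays and 9.00, 8.90, 9.24 and 9.25 on the MC2494 arrays. It rose by 0.27 ± 0.09 with MC2494 (adjusted p = 0.0189), a call lost without any 1 of control replicate 1 and MC2494 replicates 3 and 4 (0.22 to 0.23, adjusted p from 0.0605 to 0.0622), with median scaling (0.18, adjusted p = 0.0969) and with no scaling (0.17, adjusted p = 0.124). With EX527 it changed by 0.02 ± 0.09 (adjusted p = 0.901).

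All 8 measured proteases passed with MC2494, 6 as rises and 2 as falls, while with EX527 3 rose and 5 did not pass, where 72.1% and 56% of all genes passed. CTSD encodes cathepsin D, the main aspartic protease of the lysosome. It had 12.09, 12.06, 11.94 and 11.93 on the control arrays, 12.59, 12.56, 12.51 and 12.50 on the EX527 arrays and 13.01, 13.01, 12.83 and 12.78 on the MC2494 arrays, and its groups stood apart in the order control, EX527, MC2494. It rose by 0.90 ± 0.07 with MC2494, or 1.86-fold (adjusted p = 2.18e-08), and by 0.53 ± 0.07 with EX527 (adjusted p = 1.37e-05). With median scaling the rise with MC2494 was 0.58. CTSB, a cysteine protease, had 11.43, 11.55, 11.62 and 11.67 on the control arrays, 11.57, 11.60, 11.35 and 11.52 on the EX527 arrays and 12.39, 12.11, 12.30 and 12.34 on the MC2494 arrays. MC2494 was above both other groups, which overlapped. The rise was 0.72 ± 0.08 with MC2494 (adjusted p = 1.17e-06), and 0.39 with median scaling. With EX527 the change was -0.06 ± 0.08 (adjusted p = 0.543), which passed as a fall with median scaling (-0.20, adjusted p = 0.0308).

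CTSS, a cysteine protease of antigen presentation, had 6.09, 6.20, 6.53 and 6.67 on the control arrays, 6.46, 6.25, 6.57 and 6.42 on the EX527 arrays and 7.09, 7.31, 7.40 and 7.36 on the MC2494 arrays. MC2494 again lay above both overlapping groups, with a rise of 0.92 ± 0.12 (adjusted p = 7.76e-06). With EX527 it changed by 0.05 ± 0.12 (adjusted p = 0.745). CTSC encodes dipeptidyl peptidase I, which activates the serine proteases of granules. Its brightest probe had 11.46, 11.41, 11.39 and 11.46 on the control arrays, 11.40, 11.43, 11.48 and 11.61 on the EX527 arrays and 10.76, 10.85, 10.85 and 10.93 on the MC2494 arrays. MC2494 lay below both other groups, with a change of -0.58 ± 0.06 (adjusted p = 5.32e-07). A second probe fell more, by -1.16 ± 0.05 with MC2494 (adjusted p = 1.88e-10) and by -0.28 ± 0.05 with EX527 (adjusted p = 0.000493), whereas the brightest probe changed by 0.05 ± 0.06 (adjusted p = 0.503) with EX527. The mean of both probes passed as a fall of -0.12 with EX527 (adjusted p = 0.0388).

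Changes of the other proteases were smaller and moved with the scaling. TPP1, which removes tripeptides, had 10.60, 10.56, 10.59 and 10.51 on the control arrays, 10.80, 10.64, 10.88 and 10.90 on the EX527 arrays and 10.87, 11.01, 10.89 and 10.91 on the MC2494 arrays. Both treated groups lay above control, with rises of 0.35 ± 0.06 (adjusted p = 0.000164) for MC2494 and 0.24 ± 0.06 (adjusted p = 0.00577) for EX527. Neither passed with median scaling, at 0.10 and 0.16 (adjusted p = 0.306 and 0.115), or with no scaling, at 0.09 and 0.20 (adjusted p = 0.392 and 0.0864). CTSZ, a carboxypeptidase, had 10.06, 10.08, 10.03 and 9.90 on the control arrays, 10.22, 10.12, 10.13 and 10.24 on the EX527 arrays and 10.18, 10.25, 10.15 and 10.17 on the MC2494 arrays, with both treated groups above control. It rose by 0.17 ± 0.06 with MC2494 (adjusted p = 0.0154). It no longer passed without control replicate 4 (0.13, adjusted p = 0.0551), and the value turned to -0.02 with median scaling and -0.03 with no scaling. Its rise of 0.16 ± 0.06 with EX527 (adjusted p = 0.0295) was lost without any 1 of control replicate 4 and EX527 replicates 1 and 4 (0.12 to 0.14, adjusted p from 0.0783 to 0.0956) and under both scalings (adjusted p = 0.158 and 0.136).

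CTSH, an aminopeptidase, had 12.09, 12.02, 11.94 and 11.86 in control and 12.28, 12.38, 12.23 and 12.28 in MC2494, without overlap. It rose by 0.32 ± 0.06 (adjusted p = 0.000199) with MC2494 and turned to -0.03 and -0.03 under these scalings. Its change of -0.12 ± 0.06 with EX527 did not pass (adjusted p = 0.106). It passed as a fall without control replicate 4 (-0.16, adjusted p = 0.0364), with median scaling (-0.28, adjusted p = 0.00151) and with no scaling (-0.24, adjusted p = 0.0184). A second CTSH probe gave 0.08 ± 0.12 with MC2494 (adjusted p = 0.548), which did not pass, and a called fall of -0.37 ± 0.12 with EX527 (adjusted p = 0.0159). CTSA, the protective protein of NEU1 and beta-galactosidase, had 10.75, 10.73, 10.79 and 10.67 in control and 10.49, 10.61, 10.36 and 10.28 in MC2494, also without overlap. It fell by 0.30 ± 0.07 with MC2494 (adjusted p = 0.00155; -0.54 under median scaling) and changed by -0.03 ± 0.07 (adjusted p = 0.72) with EX527.

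Among glycosidases and lipid enzymes, PSAP, NEU1 and LIPA rose and GLA and HEXA fell with MC2494. PSAP encodes prosaposin, the precursor of the saposins that present sphingolipids to hydrolases. It had 12.36, 12.27, 12.21 and 12.36 on the control arrays, 12.67, 12.72, 12.57 and 12.68 on the EX527 arrays and 13.58, 13.56, 13.58 and 13.37 on the MC2494 arrays. Its groups did not overlap, in the order control, EX527, MC2494. The rise was 1.22 ± 0.06 with MC2494, or 2.34-fold (adjusted p = 6.36e-10), and 0.36 ± 0.06 with EX527 (adjusted p = 0.0003). A second probe gave 1.30 ± 0.06 and 0.38 ± 0.06. With median scaling the brightest probe's rise with EX527 was 0.19 (adjusted p = 0.0256).

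GLA, the alpha-galactosidase that is lacking in Fabry disease, had 11.63, 11.69, 11.69 and 11.77 on the control arrays, 11.58, 11.48, 11.50 and 11.63 on the EX527 arrays and 10.93, 10.96, 11.00 and 11.02 on the MC2494 arrays. MC2494 lay below both other groups, and EX527 just below control. The change was -0.72 ± 0.05 with MC2494, a 1.65-fold fall (adjusted p = 2.48e-08). With EX527 it was -0.15 ± 0.05 (adjusted p = 0.0293), a call lost without any 1 of control replicates 2, 3 and 4 and EX527 replicates 2 and 3 (-0.15 to -0.12, adjusted p from 0.0533 to 0.0856) and kept at -0.31 with median scaling. NEU1, the lysosomal sialidase, had 10.30, 10.28, 10.31 and 10.32 on the control arrays, 10.42, 10.23, 10.30 and 10.33 on the EX527 arrays and 10.96, 10.98, 10.88 and 10.90 on the MC2494 arrays, with MC2494 apart from overlapping control and EX527 arrays. It rose by 0.63 ± 0.05 with MC2494 (adjusted p = 8.67e-08), or 0.39 with median scaling, and changed by 0.02 ± 0.05 (adjusted p = 0.803) with EX527.

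LIPA, the acid lipase of the lysosome, had 10.97, 10.92, 10.92 and 10.79 in control, 11.08, 10.94, 11.23 and 11.01 in EX527 and 11.42, 11.57, 11.56 and 11.54 in MC2494. It rose by 0.62 ± 0.07 with MC2494 (adjusted p = 1.6e-06), or 0.35 with median scaling, and its change of 0.17 ± 0.07 with EX527 did not pass (adjusted p = 0.053) but did without any 1 of control replicate 1 and EX527 replicate 2 (0.19 to 0.21, adjusted p from 0.0261 to 0.0463) and with no background correction (0.16, adjusted p = 0.0309). HEXA, the alpha subunit of beta-hexosaminidase, had 6.54, 6.79, 6.80 and 6.75 in control and 6.03, 6.25, 6.32 and 6.09 in MC2494, without overlap. It changed by -0.55 ± 0.08 with MC2494 (adjusted p = 2.11e-05) and by -0.05 ± 0.08 (adjusted p = 0.612) with EX527. The HEXA change with MC2494 was -0.35 with no background correction. GUSB, the beta-glucuronidase often used as a reference gene, changed by -0.01 ± 0.05 (adjusted p = 0.849) with MC2494 and by 0.01 ± 0.05 (adjusted p = 0.837) with EX527. It passed as a fall with MC2494 under median scaling (-0.29, adjusted p = 0.000792) and no scaling (-0.29, adjusted p = 0.00276). GAA, the acid alpha-glucosidase, changed by 0.10 ± 0.09 (adjusted p = 0.342) with MC2494 and by 0.01 ± 0.09 (adjusted p = 0.926) with EX527, and its second probe by -0.14 ± 0.10 and 0.01 ± 0.10, none of which passed.

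**Figure D4:**
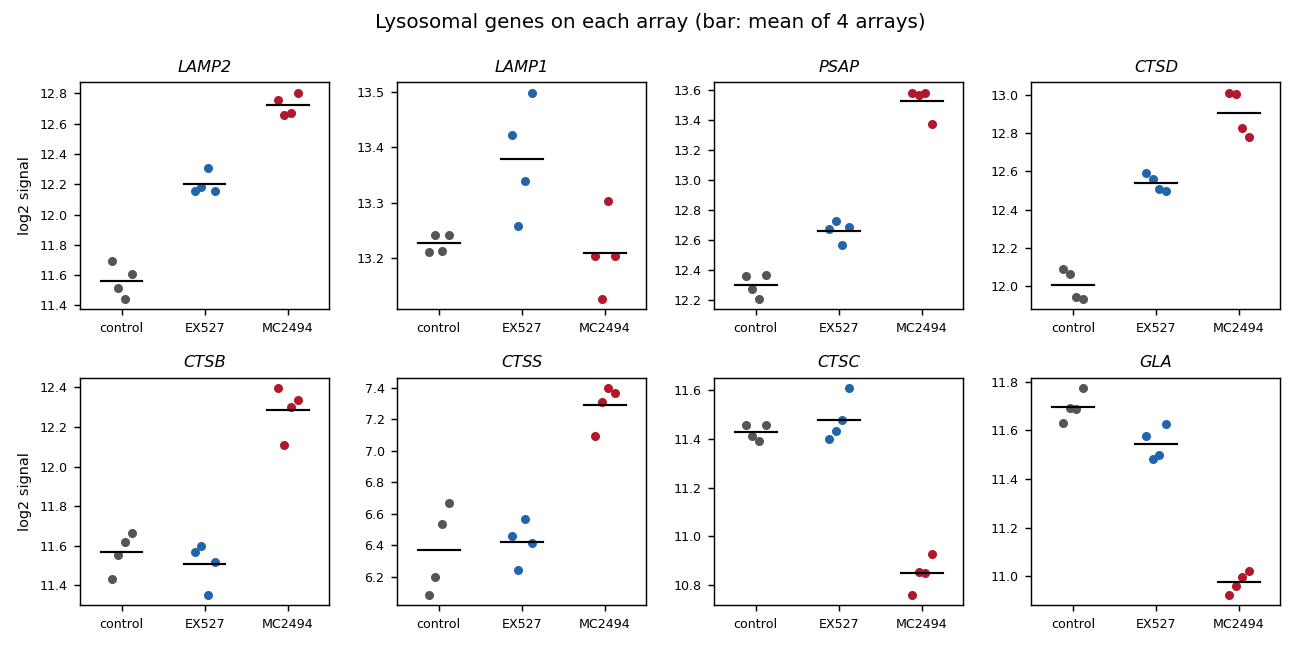
Log2 signal of 8 lysosomal genes on each of the 12 arrays, with a bar at the mean of each group of 4. Axes differ between panels and do not start at 0. LAMP2, PSAP and CTSD step up from control over EX527 to MC2494, CTSB and CTSS are higher in MC2494 alone, CTSC and GLA are lowest in MC2494, and LAMP1 spans less than 0.4 over all 12 arrays. LAMP1 falls with MC2494 under median scaling and no scaling.

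The 16 measured pump genes had a median change of 0.30 with MC2494, with 10 rises and 2 falls, and of 0.13 with EX527, with 8 rises and 3 falls. The share that passed, 75% and 68.8%, compares with 72.1% and 56% of all genes. With median scaling these medians were 0.06 and 0.05, and with no scaling 0.06 and 0.09. The rises lay mostly in the V1 sector. Of 9 measured V1 genes 7 rose and 0 fell with MC2494 (median 0.57), and 6 rose and 0 fell with EX527 (median 0.22). Of 7 measured V0 genes 3 rose and 2 fell with MC2494 (median 0.12), and 2 rose and 3 fell with EX527 (median -0.14). With median scaling the V1 counts were 5 rises and 1 fall for MC2494 (median 0.33) and 3 rises and 1 fall for EX527 (median 0.07), and the V0 counts were 1 rise and 3 falls (median 0.02) and 2 rises and 4 falls (median -0.22). Under median scaling 71.3% of all genes passed with MC2494 and 55.8% with EX527, and 43% and 42.1% of these were rises. The difference between the sectors was not tested.

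ATP6V1A, the catalytic subunit of V1, had 11.62, 11.63, 11.68 and 11.68 on the control arrays, 11.94, 12.01, 12.00 and 11.94 on the EX527 arrays and 12.45, 12.37, 12.53 and 12.52 on the MC2494 arrays. Its groups did not overlap, in the order control, EX527, MC2494. It rose 1.76-fold with MC2494 (0.82 ± 0.05, adjusted p = 4.91e-09), which was 0.48 with median scaling. With EX527 it rose by 0.32 ± 0.05 (adjusted p = 0.000147), a call lost with median scaling (0.16, adjusted p = 0.0586). ATP6V1B2, its partner in the ring of V1, had 12.66, 12.76, 12.73 and 12.70 on the control arrays, 12.56, 12.41, 12.64 and 12.60 on the EX527 arrays and 12.83, 12.97, 13.10 and 12.97 on the MC2494 arrays. The groups lay apart, with EX527 lowest and MC2494 highest. It rose by 0.26 ± 0.07 with MC2494 (adjusted p = 0.00317), which turned to -0.07 with median scaling and -0.07 with no scaling. With EX527 its change of -0.16 ± 0.07 did not pass (adjusted p = 0.0534) but passed as a fall without EX527 replicate 3 (-0.19, adjusted p = 0.0385), with replicate number as a block (adjusted p = 0.0471), with no background correction (-0.16, adjusted p = 0.031), with median scaling (-0.33, adjusted p = 0.00271) and with no scaling (-0.29, adjusted p = 0.0145).

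The subunits of the V1 stalks and rotor mostly rose. ATP6V1D, the axle of the rotor, had 10.96, 10.99, 11.05 and 11.00 on the control arrays, 11.36, 11.26, 11.45 and 11.44 on the EX527 arrays and 11.70, 11.79, 11.81 and 11.90 on the MC2494 arrays, with 3 separate groups. It rose by 0.80 ± 0.06 with MC2494 (adjusted p = 2.18e-08) and 0.38 ± 0.06 with EX527 (adjusted p = 9.91e-05). ATP6V1C1, a stalk subunit that takes part in the assembly of the sectors, had 8.55, 8.67, 8.67 and 8.67 on the control arrays, 9.08, 9.12, 9.16 and 9.11 on the EX527 arrays and 9.24, 9.23, 9.36 and 9.35 on the MC2494 arrays. These too were 3 separate groups, with rises of 0.65 ± 0.05 (adjusted p = 5.83e-08) and 0.48 ± 0.05 (adjusted p = 4.86e-06). With median scaling and with no scaling the rises of ATP6V1D with MC2494 were 0.51 and 0.50. A second, dim ATP6V1C1 probe was detected on 0 control, 4 EX527 and 4 MC2494 arrays. Its changes were 0.67 ± 0.15 with MC2494 and 0.54 ± 0.15 with EX527. It passed the filter on detection only through the treated groups, so it is no independent support for the rises.

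ATP6V1E1, a subunit of the outer stalks, had 11.89, 11.91, 11.93 and 12.14 on the control arrays, 12.21, 12.13, 12.18 and 12.14 on the EX527 arrays and 12.56, 12.57, 12.74 and 12.64 on the MC2494 arrays. MC2494 lay above both other groups, and EX527 overlapped control at control replicate 4. It rose by 0.66 ± 0.06 with MC2494 (adjusted p = 4.66e-07), which was 0.33 with median scaling. A second probe gave 0.70 ± 0.06 with MC2494 and 0.25 ± 0.06 with EX527. With EX527 it rose by 0.20 ± 0.06 (adjusted p = 0.0203), a call lost without any 1 of control replicates 1 and 2 and EX527 replicate 1 (0.17 to 0.18, adjusted p from 0.0553 to 0.0574), with median scaling (0.04) and with no scaling (0.08). Its paralog ATP6V1E2 was not analysed here.

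ATP6V1G1, which pairs with the E subunit, had 11.86, 11.78, 11.74 and 11.82 on the control arrays, 12.09, 12.16, 12.03 and 11.84 on the EX527 arrays and 12.12, 12.18, 12.04 and 12.13 on the MC2494 arrays. The MC2494 arrays were above control, and EX527 touched control at replicate 4. It rose by 0.32 ± 0.07 with MC2494 (adjusted p = 0.000666), which turned to -0.02 with median scaling and -0.02 with no scaling. Its rise of 0.23 ± 0.07 with EX527 (adjusted p = 0.0101) was lost under these scalings (0.07 and 0.11). The paralog ATP6V1G2 was detected on 1, 1 and 2 arrays of control, EX527 and MC2494, at 5.10, 5.21, 5.13 and 4.93 on the control arrays, 5.13, 5.09, 5.31 and 5.11 on the EX527 arrays and 5.38, 5.38, 5.01 and 5.03 on the MC2494 arrays, and did not pass (0.11, adjusted p = 0.332, with MC2494). ATP6V1H, a regulatory subunit, rose by 0.57 ± 0.06 (adjusted p = 1.24e-06) with MC2494, or 0.36 with median scaling, and by 0.22 ± 0.06 (adjusted p = 0.00797) with EX527. ATP6V1F, a rotor subunit, changed by 0.04 ± 0.08 (adjusted p = 0.652) with MC2494, and turned to a called fall of -0.28 (adjusted p = 0.00155) with median scaling and -0.29 (adjusted p = 0.00546) with no scaling. With EX527 it changed by 0.03 ± 0.08 (adjusted p = 0.794).

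In the V0 sector the genes of the proton-carrying ring fell with both compounds, and those that rose with MC2494 encode forms of the d and e subunits. ATP6V0C, the main ring subunit, had 8.42, 8.51, 8.61 and 8.61 in control, 8.17, 8.21, 8.15 and 8.22 in EX527 and 8.08, 8.26, 8.13 and 8.19 in MC2494. Both treated groups lay below control, with changes of -0.37 ± 0.06 (adjusted p = 5.28e-05) for MC2494 and -0.35 ± 0.06 (adjusted p = 0.0002) for EX527. ATP6V0B, a further ring subunit, changed by -0.20 ± 0.06 (adjusted p = 0.00714) with MC2494 and by -0.23 ± 0.06 (adjusted p = 0.00523) with EX527, and with median scaling by -0.52 and -0.42. Its second probe gave -0.35 ± 0.12 (adjusted p = 0.0187) and -0.29 ± 0.12, of which the latter did not pass (adjusted p = 0.0613).

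The d subunit has a widely expressed form, ATP6V0D1, and a form known from osteoclasts and kidney, ATP6V0D2. ATP6V0D1 had 9.77, 9.80, 9.76 and 9.63 on the control arrays, 9.66, 9.56, 9.58 and 9.59 on the EX527 arrays and 10.03, 10.38, 9.97 and 9.99 on the MC2494 arrays. MC2494 lay above both overlapping groups, replicate 2 highest. It rose by 0.35 ± 0.08 with MC2494 (adjusted p = 0.0015), which did not pass with median scaling (0.18, adjusted p = 0.0785) or no scaling (0.17, adjusted p = 0.139), and changed by -0.14 ± 0.08 (adjusted p = 0.165) with EX527. ATP6V0D2 was detected on 3 control, 4 EX527 and 4 MC2494 arrays, at 5.14, 4.99, 5.33 and 5.42 on the control arrays, 5.88, 5.80, 5.52 and 6.00 on the EX527 arrays and 5.85, 5.73, 5.61 and 5.71 on the MC2494 arrays. Both treated groups lay above control, with rises of 0.51 ± 0.11 (adjusted p = 0.000678) and 0.58 ± 0.11 (adjusted p = 0.000404), the latter being the largest change of a pump gene with EX527 on the reported values. With no background correction these rises of a dim probe were 0.26 and 0.30, and both passed. The EX527 rise was then smaller than that of ATP6V1C1, which was at least 0.43 under every alternative.

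ATP6V0E2, a form of the small e subunit, had 10.90, 10.93, 10.91 and 10.93 on the control arrays, 10.77, 10.75, 10.64 and 10.58 on the EX527 arrays and 11.33, 11.30, 11.14 and 11.05 on the MC2494 arrays. Its groups did not overlap, with EX527 lowest and MC2494 highest. It changed by 0.29 ± 0.07 with MC2494 (adjusted p = 0.00181), lost with median scaling (0.02, adjusted p = 0.842) and no scaling (0.01, adjusted p = 0.904), and by -0.23 ± 0.07 with EX527 (adjusted p = 0.0115). Its paralog ATP6V0E1 had 13.03, 13.07, 12.96 and 13.11 on the control arrays, 13.09, 12.96, 12.98 and 12.97 on the EX527 arrays and 12.92, 12.92, 13.00 and 12.94 on the MC2494 arrays, with overlap of all groups. It changed by -0.09 ± 0.05 (adjusted p = 0.126) with MC2494 and passed as a fall with median scaling (-0.41, adjusted p = 3.02e-05) and with no scaling (-0.41, adjusted p = 0.000117). With EX527 its change of -0.04 also passed as a fall with median scaling (-0.22, adjusted p = 0.00747). ATP6V0A2, a form of the large a subunit known from endosomes and the Golgi, had 8.98, 8.83, 8.98 and 8.85 on the control arrays, 9.13, 9.10, 9.21 and 9.21 on the EX527 arrays and 9.01, 8.85, 9.08 and 9.19 on the MC2494 arrays. EX527 lay above control, with a rise of 0.26 ± 0.07 (adjusted p = 0.00792). With MC2494 it changed by 0.12 ± 0.07 (adjusted p = 0.145), which passed without MC2494 replicate 2 (0.18, adjusted p = 0.0228).

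**Figure D5:**
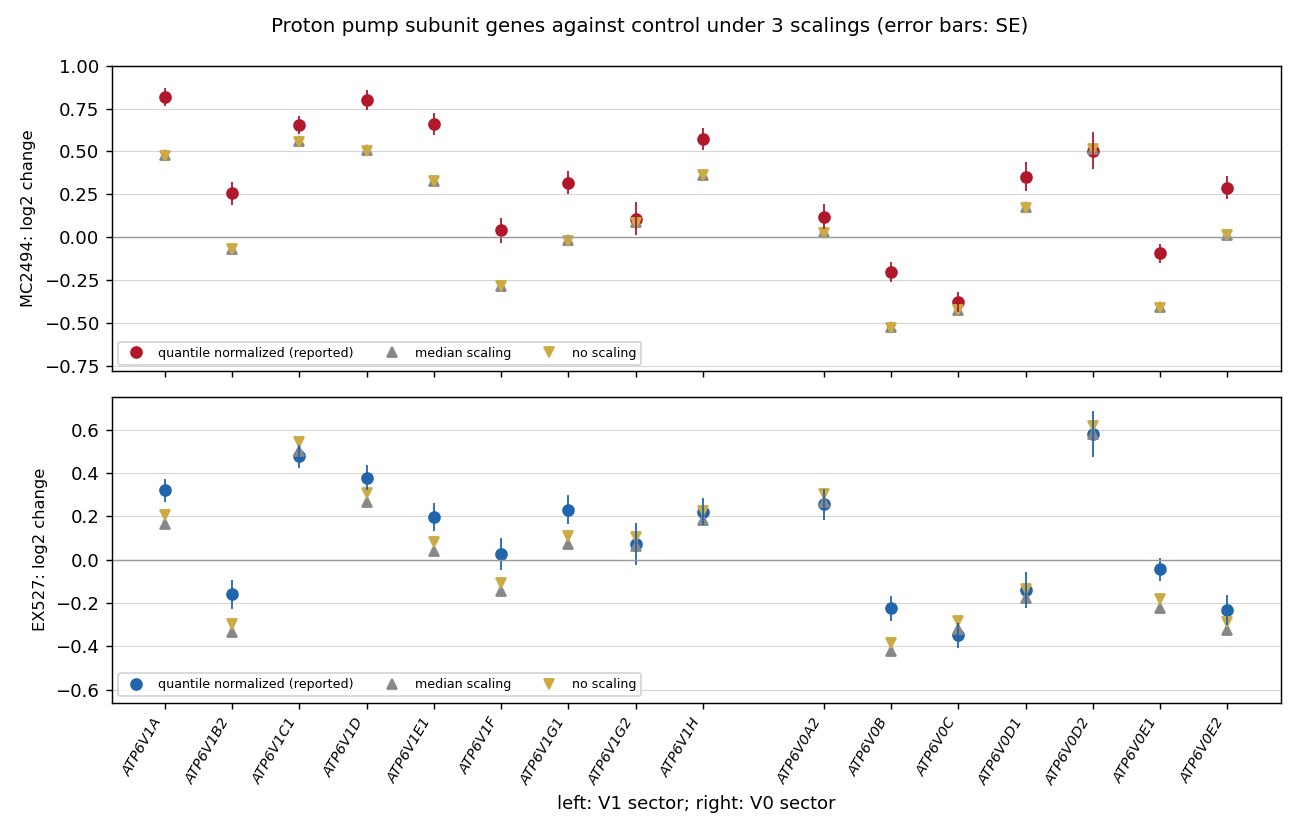
Log2 change against control of the 16 measured pump genes for MC2494 (upper panel) and EX527 (lower panel), with quantile normalization as reported (circles, with standard error), median scaling (upward triangles) and no scaling (downward triangles). V1 genes stand on the left and V0 genes on the right. ATP6V1A, ATP6V1C1, ATP6V1D, ATP6V1E1 and ATP6V1H stay above 0 under all 3 scalings, while ATP6V1B2, ATP6V1F and ATP6V1G1 turn sign with MC2494.

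Set against each other, autophagy machinery and lysosomal enzymes and membrane proteins both held more rises than falls with MC2494. Autophagy machinery, with 23 measured genes, had 10 rises, 3 falls and a median of 0.17 (0.10 with no background correction and 0.085 with a larger offset), and the 19 lysosomal genes had 11 rises, 4 falls and a median of 0.27. With EX527 the autophagy genes were split, 7 up and 6 down with a median of 0.01, and the lysosomal genes had 7 rises, 1 fall and a median of 0.05. Of the autophagy genes 56.5% passed with either compound, and of the lysosomal genes 78.9% with MC2494 and 42.1% with EX527. Over all genes 72.1% passed with MC2494 and 56% with EX527. With median scaling 71.3% of all genes passed with MC2494, and 43% of these were rises. The autophagy genes then held 12 rises and 5 falls with MC2494 (median 0.17), and the lysosomal genes 7 rises and 6 falls (median 0.10). The order of the 2 medians therefore turned with the scaling, and the medians of all genes were 0.01 with quantile normalization and -0.08 with median scaling. The EX527 median of the autophagy genes lay between -0.03 and 0.04 as single arrays were left out, and was below 0 without control replicate 2, control replicate 4 or EX527 replicate 2.

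WIPI2, ATG4B, TFEB and ATP6V0E2 rose with MC2494 and fell with EX527, each against the same 4 control arrays. The ATP6V0E2 rise was lost with median scaling and with no scaling, and both ATG4B calls were lost with no scaling.

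The compounds were also compared directly, as MC2494 minus EX527. The labels give no dose of either one, so the doses cannot be taken as matched. Of the 61 genes 30 were higher in MC2494 and 10 lower, against 32.8% and 28.7% of all genes (61.5% in either direction), and 15 passed together with 1.5-fold, against 19.6% of all genes. The groups lay apart in 38 genes, against 55.5% of all. The median was 0.18 in the set and 0.02 over all genes. With median scaling 25 were higher and 13 lower, where 58.9% of all genes passed. Of the called genes 65.8% were then higher in the set and 41.8% over all genes. With no scaling 22 were higher and 13 lower, where 56.7% of all genes passed. Of these called genes 62.9% were higher in the set and 35.9% over all genes, and the median of all genes moved to -0.10.

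On the reported values the largest differences between the compounds were those of OPTN, at 1.30 ± 0.07 (adjusted p = 8.37e-10), GABARAPL1, at 1.19 ± 0.13 (adjusted p = 2.26e-06), and ATG7, at -1.02 ± 0.07 (adjusted p = 1.55e-08). With no background correction the difference of the dim GABARAPL1 probe was 0.76, which still passed but was smaller in size than that of ATG7. The genes with opposite signs against control differed by 0.97 ± 0.05 (WIPI2), 0.94 ± 0.10 (TFEB), 0.52 ± 0.07 (ATP6V0E2) and 0.48 ± 0.06 (ATG4B), with adjusted p at or below 1.59e-05. The TFEB difference was 0.56 with no background correction, which passed. MAP1LC3B differed by 0.87 ± 0.06 (adjusted p = 1.7e-08), CTSS by 0.87 ± 0.12 (adjusted p = 2.1e-05), PSAP by 0.86 ± 0.06 (adjusted p = 4.36e-08) and CTSB by 0.78 ± 0.08 (adjusted p = 8.89e-07). CTSC was lower in MC2494 by 0.63 ± 0.06 and GLA by 0.57 ± 0.05 (adjusted p = 4.08e-07 and 5.04e-07).

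The differences of WIPI1 (0.01 ± 0.06, adjusted p = 0.915), ATP6V0D2 (-0.07 ± 0.11, adjusted p = 0.579) and ATG16L1 (0.07 ± 0.05, adjusted p = 0.265) did not pass. MCOLN1 (-0.24 ± 0.06, adjusted p = 0.00332) and LAMP1 (-0.17 ± 0.06, adjusted p = 0.0247) were lower in MC2494 than in EX527, the latter not without any 1 of EX527 replicates 1 and 4 and MC2494 replicate 2 (-0.15 to -0.13, adjusted p from 0.0656 to 0.088). ULK1 was lower in MC2494 by 0.26 ± 0.09 (adjusted p = 0.0202), not so without MC2494 replicate 2 (-0.17, adjusted p = 0.0537), and CD63 was higher by 0.26 ± 0.09 (adjusted p = 0.0305), not so without any 1 of EX527 replicates 2, 3 and 4 and MC2494 replicates 3 and 4 (0.21 to 0.25, adjusted p from 0.0567 to 0.0929). In the pump, ATP6V1A was higher in MC2494 by 0.50 ± 0.05 (adjusted p = 1.49e-06), ATP6V0D1 by 0.50 ± 0.08 (adjusted p = 0.000129) and ATP6V1D by 0.42 ± 0.06 (adjusted p = 2.49e-05), the last not passing with no scaling (0.20, adjusted p = 0.0592). ATG12 was higher by 0.18 ± 0.05 (adjusted p = 0.00518), a call lost with median scaling (0.03) and turned to -0.01 with no scaling. Both other scalings ended the differences of ATG9A (0.12 with median scaling and 0.08 with no scaling), BECN1 (0.08 and 0.04), ATP6V1C1 (0.06 and 0.01) and CD63 (0.14 and 0.10), all called higher in MC2494 on quantile normalized values. With no scaling those of CTSD (0.17) and ATP6V1H (0.14) did not pass either. In the other direction, ATP6V0A2 (-0.24 and -0.28), ATP6V0E1 (-0.18 and -0.23) and GUSB (-0.18 and -0.22) passed as lower in MC2494 under both scalings, with adjusted p from 0.0114 to 0.0247. A further 12 called differences of the set changed in size by over 1.5 times with median scaling, 9 of them to a smaller value, and 14 with no scaling, 10 to a smaller value.

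Other genes of the same pathways came from lists drawn up beside the set. Of 22 other autophagy genes measured, 12 rose and 5 fell with MC2494 and 5 rose and 5 fell with EX527, so that 77.3% and 45.5% passed, against 72.1% and 56% of all genes. With median scaling 12 rose and 6 fell with MC2494 and 5 rose and 3 fell with EX527. That was 81.8% and 36.4%, against 71.3% and 55.8% of all genes. TP53INP2, which aids LC3 to leave the nucleus, rose 3.6-fold with MC2494 (1.85 ± 0.06, adjusted p = 5.73e-12) and changed by -0.09 ± 0.06 (adjusted p = 0.193) with EX527. TMEM41B, a lipid scramblase of the endoplasmic reticulum, rose by 1.40 ± 0.05 with MC2494 and 0.45 ± 0.05 with EX527 (adjusted p = 1.55e-11 and 5.06e-06). RB1CC1, the scaffold of the ULK1 complex, rose with both, by 1.24 ± 0.06 and 1.28 ± 0.06 (adjusted p = 3.03e-10 and 2.89e-09), and between the compounds differed by -0.03 ± 0.06 (adjusted p = 0.65), or -0.21 with no scaling, which passed (adjusted p = 0.0463). The cargo receptor TAX1BP1 rose more with EX527 (1.11 ± 0.05) than with MC2494 (0.89 ± 0.05), a difference of -0.23 ± 0.05 (adjusted p = 0.00195). ATG16L2, a paralog of ATG16L1, rose by 1.19 ± 0.11 and 1.09 ± 0.11, while ATG16L1 fell with both. With no background correction the rises of ATG16L2 were 0.73 and 0.66. TECPR1, which joins autophagosomes to lysosomes, rose by 0.50 ± 0.10 with MC2494 and changed by -0.27 ± 0.10 with EX527 (adjusted p = 0.000588 and 0.0381). Its EX527 call was lost without any 1 of control replicates 1, 3 and 4 and EX527 replicates 1, 2 and 4 (-0.28 to -0.19, adjusted p from 0.0584 to 0.124), with median scaling (-0.22) and with no scaling (-0.18), and with no background correction its changes were 0.31 and -0.16.

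Of 37 other lysosome genes measured, 23 rose and 8 fell with MC2494, and 16 rose and 4 fell with EX527. These shares, 83.8% and 54.1%, stand against 72.1% and 56% of all genes. With median scaling the counts were 20 and 12 for MC2494 and 15 and 4 for EX527. That was 86.5% and 51.4%, against 71.3% and 55.8% of all genes. CTSO, a cysteine protease, rose 3.47-fold with MC2494 (1.80 ± 0.14, adjusted p = 5.92e-08), and OSTM1, the partner of a lysosomal chloride transporter, 3.24-fold (1.70 ± 0.08, adjusted p = 1.9e-10). With EX527 these rose by 0.47 ± 0.14 and 1.07 ± 0.08 (adjusted p = 0.0141 and 1.15e-07), the CTSO rise being 0.27 with no background correction. SCARB2, the receptor of glucocerebrosidase, rose with both, by 1.40 ± 0.05 and 0.85 ± 0.05. NPC1, which exports cholesterol from the lysosome, fell 3.22-fold with MC2494 (-1.68 ± 0.06, adjusted p = 9.27e-12) and changed by -0.31 ± 0.06 with EX527 (adjusted p = 0.000398). CTSV, a protease close to cathepsin L, fell 3.15-fold with MC2494 (-1.66 ± 0.07, adjusted p = 9.08e-11) and changed by -0.03 ± 0.07 (adjusted p = 0.734) with EX527. FUCA1, a fucosidase, and IDS, a sulfatase, went opposite ways. FUCA1 fell by 0.99 ± 0.06 with MC2494 and rose by 1.17 ± 0.06 with EX527, and IDS rose by 1.68 ± 0.07 with MC2494 and fell by 0.35 ± 0.07 with EX527 (adjusted p at or below 0.000728 in all 4 cases). These IDS values are of the brightest of 3 probes. A second one, the brightest when MC2494 replicate 3 or 4 was left out, gave 0.82 ± 0.05 with MC2494, and the third gave -0.21 ± 0.16, which did not pass (adjusted p = 0.246).

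Of 8 other genes of the pump and its assembly, 5 rose and 2 fell with MC2494 and 6 rose and 0 fell with EX527, or 87.5% and 75% against 72.1% and 56% of all genes. With median scaling 3 rose and 2 fell with MC2494 and 5 rose and 0 fell with EX527. That was 62.5% with either compound, against 71.3% and 55.8% of all genes. NCOA7, which holds a domain that binds the pump, rose 3.22-fold with MC2494 (1.69 ± 0.07, adjusted p = 3.45e-11) and 2.26-fold with EX527 (1.18 ± 0.07, adjusted p = 1.03e-08). DMXL2, part of a complex that joins V1 to V0, rose by 0.74 ± 0.05 and 0.92 ± 0.05 (adjusted p = 1.99e-08 and 1.46e-08). ATP6AP2, an accessory subunit, rose by 0.49 ± 0.06 and 0.41 ± 0.06 (adjusted p = 3.59e-06 and 4.61e-05), the first call being lost with median scaling (0.17) and no scaling (0.17). TCIRG1, which encodes the a subunit form of lysosomes and osteoclasts, fell by 0.32 ± 0.06 with MC2494 and rose by 0.47 ± 0.06 with EX527 (adjusted p = 0.000155 and 1.1e-05). VMA21, a chaperone of V0 assembly, likewise fell by 0.20 ± 0.06 and rose by 0.24 ± 0.06 (adjusted p = 0.0103 and 0.00477), the rise being lost with median scaling (0.06) and no scaling (0.10) and the fall being -0.53 under median scaling.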

How the data were processed

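U937 cells were measured on 12 Illumina bead arrays in 3 groups of 4, grouped by the labels. The deposited table gives 1 probe signal intensity and 1 detection p-value per array, unnormalized per the file headers, and the authors also deposited a normalized log2 value table, used as an alternative. The submitters' processing notes name limma, while the scanner software and any background correction before deposit are not stated in those sources. In limma 3.58.1 (R 4.3.3), neqc with an offset of 16 inferred background from the detection p-values and quantile normalized all 24526 probes. The 13174 probes with a detection p-value under 0.05 on at least 4 arrays were kept. The number of arrays limits the precision, and the median within-group SD of the 61 measured genes was 0.088 log2 units. A group-mean model was fitted to all 12 arrays with empirical Bayes variance, and p-values were adjusted by Benjamini-Hochberg. A gene with several kept probes, as for 1579 genes, was read from the brightest, and disagreeing probes are named.

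Symbols came from the platform annotation, with 21834 probes of 1 symbol, 0 of several and 2692 of none. They were updated through Entrez identifiers in a RefSeq table (GRCh38.p14), which did not hold 21 named probes. 0 sample columns were left unused. The members and lists were chosen with earlier results of these data known. Named were up to 3 of the largest called changes per role list and comparison, all members called in opposite directions for the compounds, paralogous pump subunits and the ATG8 family, members whose probes disagree, and the 3 largest per comparison from the other lists. The remaining members (ATG3, ATG10, ATG13, BECN1, PIK3C3, NBR1, CTSA, CTSH, LIPA, HEXA, GUSB, GAA, ATP6V0B, ATP6V0C, ATP6V1F and ATP6V1H) were added after their values were seen. Deviations from group means of equally numbered arrays correlated at -0.04 to 0.18, not all above 0.1, so numbers were not used as pairs. The fit was tested on simulated data with independent values and few changed probes. The simulation left out normalization, so it cannot speak to the scaling of arrays on which many genes changed. As alternatives, the background correction, its offset, the scaling, the filter on detection, the probe read for a gene, the variance model and the arrays entering the fit were changed, arrays were weighted, replicate number was added as a block, the authors' table and a stricter threshold were used, and each array was left out in turn.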

Additional observations from a re-analysis of the deposited data

Results flagged for a closer look

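In 8 of 183 gene and group combinations of 4 arrays, 1 array stood apart from the other 3 by more than Dixon's 95% criterion, which chance passes in about 1 in 20. All values are log2 signals. ATG7 on control replicate 4 was at 10.9076, against 10.7541 to 10.7636 on the other control arrays. ATP6V1E1 on control replicate 4 was at 12.1423, against 11.891 to 11.9305, and TFEB on the same array at 6.44585, against 6.21026 to 6.23771. ATP6V1C1 on control replicate 1 was at 8.5536, against 8.6712 to 8.67292. In EX527, ATP6V0E1 on replicate 1 was at 13.0919, against 12.9551 to 12.9761, and LAMP2 on replicate 3 at 12.3091, against 12.1587 to 12.182. In MC2494, ATP6V0D1 on replicate 2 was at 10.3839, against 9.97061 to 10.029, and PSAP on replicate 4 at 13.3692, against 13.5638 to 13.5816.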

How the results depend on the processing

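Of 117 called gene changes of the set, 82 stayed called in the same direction under every alternative that measured the gene, and 35 were lost or turned under at least 1. ATP6V0D2 was not measured where detection on all 12 arrays was asked for. The number of changed genes moved by less than 1.5 times under every alternative, from 42 to 47 for MC2494, 29 to 33 for EX527 and 38 to 42 between the compounds as single arrays were left out. With the replicate block the counts were 44, 33 and 40, and the calls of CD63 between the compounds and of LAMP1 and MITF with EX527 were lost (adjusted p = 0.0527, 0.05 and 0.0851). The block also brought in GABARAP with MC2494 and between the compounds (adjusted p = 0.0103 and 0.0175) and ATP6V1B2 with EX527 (adjusted p = 0.0471). Scaling mattered most. With median scaling the MC2494 changes of ATP6V1B2 (-0.066), ATP6V1F (-0.28), ATP6V1G1 (-0.015), CTSH (-0.026) and CTSZ (-0.024) and the EX527 change of LAMP1 (-0.030) turned sign. With no scaling those of ATP6V1B2 (-0.070), ATP6V1F (-0.29), ATP6V1G1 (-0.019), CTSH (-0.029) and CTSZ (-0.028) turned with MC2494, and ATG12 (-0.014) between the compounds. With the mean of a gene's probes, CTSC (-0.12) and MITF (0.074) turned with EX527, and the lysosomal median with MC2494 was 0.20. With median scaling the medians for MC2494 were 0.095 (lysosomal) and 0.060 (pump), for EX527 0.051 (pump), and between the compounds 0.12 (autophagy), 0.029 (lysosomal) and 0.042 (pump). With no scaling they were 0.091 (lysosomal) and 0.056 (pump) for MC2494, 0.091 (pump) for EX527, and 0.076 (autophagy), -0.014 (lysosomal) and -0.0017 (pump) between the compounds. The autophagy median with MC2494, 0.17 as reported, was 0.10 with no background correction and in the authors' deposited log2 table, 0.085 with a larger offset and 0.24 over genes detected on all 12 arrays. Without background correction 6 called changes of the set with MC2494, 3 with EX527 and 5 between the compounds kept their call at a size over 1.5 times smaller, among them GABARAPL1, TFEB, TFE3 and ATP6V0D2. With median scaling 10, 4 and 12 called changes kept their call but moved by over 1.5 times. The pump median with MC2494 was 0.27 with no background correction, with no detection filter and in the authors' deposited log2 table, that with EX527 was 0.051 with no detection filter, and that between the compounds was 0.26 over genes detected on all 12 arrays. As single arrays were left out, the pump median ran from 0.26 to 0.33 for MC2494, from 0.12 to 0.19 for EX527 and from 0.10 to 0.20 between the compounds. The autophagy medians ran from 0.12 to 0.22, -0.03 to 0.04 and 0.18 to 0.21, and the lysosomal ones from 0.22 to 0.31, 0.04 to 0.08 and 0.07 to 0.15, lowest between the compounds without EX527 replicate 2. Why the scalings differ was not tested. Signals near background (NBR1, ATP6V1G2, ATP6V0D2) limit what those genes can show.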
